A study of Mus musculus with 4 samples.

Results

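Tal1, Runx1, Gata2, Lmo2, Gfi1b, Spi1, Etv2, Kdr, Cd34 and Kit are 10 early regulators and surface receptors of the blood and endothelial lineages. They were chosen by name, from 20284 genes that RefSeq transcript accessions identify on the array, and every probe outside the controls that carries an accession of one of them was used, 14 probes in all. The 4 lines, 1 one-colour array each, were parental ES cells (the mouse ES line EB3, from which the others were derived), clones #1 and #9 of Nup98-HoxA9 ES, and HoxA9-Ct ES. Nup98-HoxA9 joins the N-terminal, FG-repeat part of the nucleoporin Nup98 to the C-terminal, homeodomain part of HoxA9, as in a chromosomal rearrangement of myeloid leukaemia, and HoxA9-Ct is that C-terminal part alone. The transgenes were FLAG-tagged human sequences put into the genome with the Tol2 transposon, and each transgenic line was a colony picked under hygromycin, so that the transgene and the properties of a single clone cannot be told apart within a line. All 4 lines were kept undifferentiated with LIF on gelatin, and were not differentiated into blood for these arrays. The question asked of these genes was whether the leukaemia fusion turns on blood genes in ES cells.

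Blood and endothelium arise from mesoderm that carries Kdr, the VEGF receptor Flk1. The ETS factor Etv2 drives such cells towards both fates, and Tal1 (SCL), Lmo2 and Gata2 then act in a shared DNA-binding complex that opens the blood programme. Runx1 is needed for blood stem cells to emerge from endothelium, Gfi1b and Spi1 (PU.1) act in red cell, platelet and myeloid precursors, and the receptor Kit and the sialomucin Cd34 mark the progenitors. Kit is also expressed in pluripotent ES cells. Hox genes are expressed in early blood progenitors and are abnormally high in leukaemias with Nup98 fusions.

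Levels are given as the log2 of the processed signal relative to the array's 75th percentile (normalized log2 signal), so that 0 is that percentile. A probe's level was compared between lines and never with that of another probe. The share of spots well above background was 49.9% to 53.0% per array, and the lowest signal that carried this flag lay between -4.62 and -4.23 on the normalized log2 scale. All 10 markers of pluripotent ES cells were well above background in every line. Among them Pou5f1, which encodes the pluripotency factor Oct4, was at 6.56 and 6.44 in parental and HoxA9-Ct ES and 6.49 and 6.28 in clones #1 and #9, Sox2 ranged from 3.32 to 3.68 and Nanog from -2.01 to -1.41. None of the 10 was called by limma in the clones against parental ES (0 at an unadjusted p under 0.05).

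Of the 10 genes, 7 had at least 1 probe well above background in parental ES and clone #1, and 8 in HoxA9-Ct ES and clone #9. Runx1, Gata2, Lmo2, Etv2, Kdr, Cd34 and Kit were the 7, and Tal1 was the eighth in clone #9 and HoxA9-Ct ES. Tal1 was not counted in parental ES because its spot there, flagged well above background at a signal of 307, was left out as an outlier. The higher count therefore cannot show whether Tal1 was gained over parental ES. Gfi1b and Spi1 were not well above background in any line. Counted only where every probe of a gene was well above background, the numbers were 5 and 6 in parental and HoxA9-Ct ES and 6 and 7 in clones #1 and #9. The gene added in both clones by this stricter count was Runx1.

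**Figure D1:**
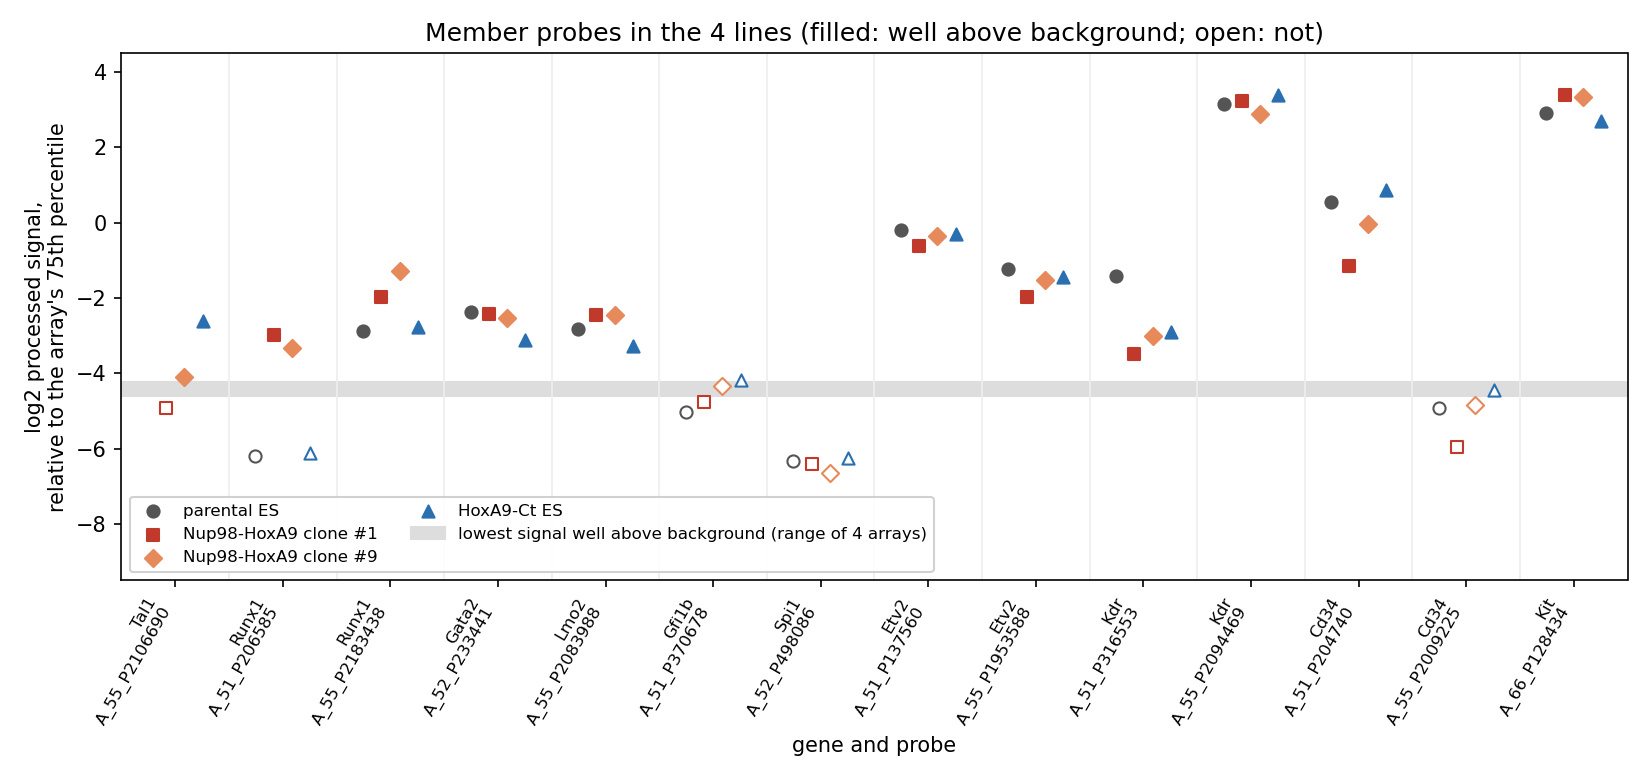
Normalized log2 signal (y axis, log2 relative to the array's 75th percentile) of the 14 probes (x axis) in parental ES, both Nup98-HoxA9 clones and HoxA9-Ct ES, 1 array each. Filled points are well above background and open points are not, and the grey band is the lowest signal so flagged, -4.62 to -4.23. Runx1 A_51_P206585 is filled in the clones alone, the parental point of Tal1 is missing because its spot was marked as an outlier, and levels of different probes are not comparable.

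Runx1, the core-binding transcription factor of definitive blood, was the only gene among the 9 that could be tested with a probe called (limma adjusted p of 0.05 or lower over all probes) in the Nup98-HoxA9 clones against parental ES, where 1.41% of all 55562 probes were called, and against HoxA9-Ct ES, where 1.36% were. The probe A_51_P206585, which carries the transcript accession NM_009821, was at -6.19 and -6.12 in parental and HoxA9-Ct ES and -2.98 and -3.34 in clones #1 and #9 on the normalized log2 scale. It was well above background in both clones and in neither of the other lines. Since the lower side was below background, the size is a bound: Runx1 signal at this probe in the clones (-3.16 ± 0.25, SD, n = 2) exceeded that of parental ES at least 2.17-fold and that of HoxA9-Ct ES at least 2.10-fold. The fitted log2 difference was 3.03 (SE 0.56, limma adjusted p = 1.62e-05) against parental ES and 2.96 (limma adjusted p = 3.39e-05) against HoxA9-Ct ES. In such RNA of whole cultures, a few cells with much Runx1 and many with little cannot be told apart. The call did not hold under 4 of 8 alternatives. With signals floored at the lowest value well above background the difference to parental ES was 1.115 (limma adjusted p = 0.141), and it was also not called after quantile normalization (limma adjusted p = 0.427), over probes above background on at least 1 array (limma adjusted p = 0.2802) or after normexp correction, where it was 0.38 (limma adjusted p = 1.00). With quantile normalization and with the filter the difference itself stayed at 3.11 and 3.03 on the log2 scale, and in these settings limma called 0 probes of the whole array (5104 and 2224 at an unadjusted p under 0.05).

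The other Runx1 probe, A_55_P2183438, which carries NM_001111022, was well above background in every line. Its level was -2.89 and -2.79 in parental and HoxA9-Ct ES and -1.98 and -1.29 in clones #1 and #9. The clones lay above both other lines, by 1.87-fold over parental ES in clone #1 and 3.03-fold in clone #9, while HoxA9-Ct ES was 1.07-fold over parental ES. The fitted log2 difference of the clones to parental ES, 1.25 (SE 0.56, 95% interval 0.16 to 2.34), did not pass the test (limma adjusted p = 0.528), nor did that to HoxA9-Ct ES, 1.15 (limma adjusted p = 0.666). Both Runx1 probes thus had both clones above both other lines, and 1 of the probes passed the test. Of all 25529 probes above background in every line, 17.3% had both clones above both other lines.

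Runx1 is transcribed from a distal and a proximal start, and the stretches before both are shown because this is the gene whose signal differed. RefSeq's table of promoter windows (GRCm38.p6, 250 bases before to 50 after each start) held 12 windows of 8 of the 10 genes, with no entry for Lmo2 or Spi1. The windows of Runx1 are on the minus strand, and the 250 bases before each start run 5′ to 3′, at chr16:92826075-92826324 for the distal and chr16:92697330-92697579 for the proximal start. Capitals mark GGAAG, a core that ETS factors bind, and CANNTG, the E-box bound by Tal1 with its partners, on either strand.
Runx1 distal: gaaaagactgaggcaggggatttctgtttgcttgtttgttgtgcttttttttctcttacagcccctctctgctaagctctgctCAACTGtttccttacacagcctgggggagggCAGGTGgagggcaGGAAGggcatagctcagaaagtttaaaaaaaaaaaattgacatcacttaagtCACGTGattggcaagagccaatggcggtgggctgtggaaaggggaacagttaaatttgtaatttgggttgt
Runx1 proximal: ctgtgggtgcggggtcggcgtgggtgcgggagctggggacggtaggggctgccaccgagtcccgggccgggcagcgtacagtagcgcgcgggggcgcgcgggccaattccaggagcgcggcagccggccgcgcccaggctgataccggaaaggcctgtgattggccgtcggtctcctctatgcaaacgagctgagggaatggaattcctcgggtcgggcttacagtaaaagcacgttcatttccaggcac
The distal stretch held 3 E-boxes and 1 GGAAG, and the proximal stretch held neither. Over the whole windows, GGAAG stood in 7 of the 12 windows of these genes and in 71.4% of all 32851 windows, and CANNTG in 7 of 12 and in 72.3%. TGTGGT, the RUNX motif, stood on either strand in 1 of the 12 windows and in 16.8% of all. That window was the distal Runx1 one, with 2 copies on the opposite strand just after the start (ACCACA, in capitals), within the 30 bases at chr16:92826025-92826054.
Runx1 distal, after the start: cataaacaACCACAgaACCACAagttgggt
TGATNNAT, a sequence bound by Hox proteins with Pbx, was in 1 of the 12 windows, a Tal1 one, and in 8.85% of all, and GATAA, the GATA motif, in 3 of the 12 and in 25.4%. These matches describe letters and carry no information on binding in these cells, and which start each Runx1 probe reads was not determined.

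Next to Runx1, the Hox-A genes give the scale of what the fusion lines expressed. Hoxa3, Hoxa9 and Hoxa10 were not well above background in parental ES or HoxA9-Ct ES. Their signal in the clones exceeded that of parental ES at least 131-fold for Hoxa3, at least 56.4-fold for Hoxa10 and at least 30.6-fold and 22.4-fold at the 2 probes of Hoxa9. Hoxa7 was above background in each of the 4 lines, and clones #1 and #9 lay 7.66 and 7.34 above parental ES on the log2 scale.

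Tal1, the helix-loop-helix factor at the head of the blood programme, has 1 probe of 1 spot, A_55_P2106690. Its parental spot was marked as an outlier by Feature Extraction, so it had no parental value and did not enter the fit. The normalized log2 signal was -2.61 in HoxA9-Ct ES and -4.09 in clone #9, both well above background, and -4.91 in clone #1, below it. Tal1 was thus highest in HoxA9-Ct ES, 2.80-fold above clone #9 and at least 3.53-fold above clone #1, with no test. With outlier spots kept, a choice made after seeing the data, the parental value was 0.42, the difference of the clones to parental ES was -4.92 (limma adjusted p = 7.23e-14) and that of HoxA9-Ct ES to parental ES was -3.03 (limma adjusted p = 0.00354), both called. All 3 transgenic lines were then below parental ES, and the clones against HoxA9-Ct ES, at -1.90, were not called (limma adjusted p = 0.0908). Both differences to parental ES rest wholly on the marked spot.

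Gata2, the zinc-finger factor of blood stem and progenitor cells, was well above background in every line, at -2.37 and -3.12 in parental and HoxA9-Ct ES and -2.43 and -2.53 in clones #1 and #9. The clones were within 0.17 of parental ES on the log2 scale, and HoxA9-Ct ES was the lowest line, 0.75 below parental ES. Lmo2, the LIM-only bridge of the Tal1 complex, was at -2.82 and -3.28 in parental and HoxA9-Ct ES and -2.45 and -2.46 in clones #1 and #9. Both clones were 1.29-fold and 1.28-fold above parental ES, whereas HoxA9-Ct ES was 1.37-fold below it. None of these differences passed the test: the 95% intervals of the clones against parental ES were -1.20 to 0.98 for Gata2 and -0.73 to 1.46 for Lmo2.

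Among 14 partners of Tal1, Lmo2 and Gata2 in this complex or their close relatives, 11 were well above background in every line and none was called in the clones against parental ES by limma (0 of 14, and 2 at an unadjusted p under 0.05). The largest differences among the 11 were of Zfpm1 (FOG1, the cofactor of GATA factors), 0.94 in clone #1 and 1.25 in clone #9 on the log2 scale, and of the E-protein Tcf12, 0.61 and 1.22. Lmo1 was 0.56 and 1.19 above parental ES in the clones and 1.35 in HoxA9-Ct ES. The median log2 difference of the clones over these 14 genes was 0.20.

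Gfi1b, a repressor of red cell and platelet development, gave signals of -5.03 and -4.19 in parental and HoxA9-Ct ES and -4.77 and -4.33 in clones #1 and #9, none well above background. Spi1, the ETS factor of myeloid and B cells, lay between -6.66 and -6.26 in the 4 lines, also below background throughout. No fold is given for either, and the sign of the clones' difference to parental ES turned for both when the background was corrected by normexp. Expression of Gfi1b and Spi1 was not detectable with these probes in any line.

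Of 20 other blood transcription factors, 12 were well above background in every line, and 2 were called in the clones against parental ES, both lower. Myb, which blood progenitors need to multiply, was at 0.01 and -0.41 in parental and HoxA9-Ct ES and -2.47 and -2.09 in clones #1 and #9, a fall to 4.89-fold below parental ES in the clones (limma adjusted p = 0.00504). Bcl11a, a factor of B cells and of globin switching, was above background in parental ES and HoxA9-Ct ES and below it in both clones, at least 5.09-fold lower than in parental ES (limma adjusted p = 0.00146). Cebpe was 1.116 and 1.61 and Irf8 1.15 and 1.48 above parental ES in clones #1 and #9 on the log2 scale, and neither was called (limma adjusted p = 0.382 and 0.445). Both were called higher than in parental ES after normexp correction (limma adjusted p = 0.0362 and 0.00318), with the floor (0.0223 and 0.0337) and with the trended prior (0.00804 and 0.0111).

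Etv2, the ETS factor that commits mesoderm to blood and endothelium, was read by 2 probes of 1 transcript, both well above background in every line. The probe A_51_P137560 was at -0.20 and -0.29 in parental and HoxA9-Ct ES and -0.62 and -0.36 in clones #1 and #9, and A_55_P1953588 was at -1.22 and -1.46, and -1.98 and -1.52, in the same order. Parental ES was the highest line at both probes and clone #1 the lowest. The differences of the clones were -0.28 and -0.53 on the log2 scale and did not pass the test (95% intervals -1.37 to 0.81 and -1.62 to 0.56).

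Kdr, the receptor that marks the mesoderm of blood and endothelium, had the lowest values relative to parental ES, at 1 of its 2 probes. The probe A_51_P316553, printed in 10 spots, was at -1.42 and -2.89 in parental and HoxA9-Ct ES and -3.48 and -3.004 in clones #1 and #9. All 3 transgenic lines were therefore below parental ES, by 4.16-fold in clone #1, 2.999-fold in clone #9 and 2.78-fold in HoxA9-Ct ES. The fitted log2 difference of the clones to parental ES was -1.82 (SE 0.56, 95% interval -2.91 to -0.73, limma adjusted p = 0.0667), that of HoxA9-Ct ES was -1.47 (limma adjusted p = 0.989), and the clones and HoxA9-Ct ES differed by -0.35 (95% interval -1.44 to 0.74). The first of these was called under 3 alternatives, with a floor on the signal (limma adjusted p = 0.000251), with a trended and robust prior (limma adjusted p = 0.00549) and, at a smaller size of -0.80, after normexp correction (limma adjusted p = 0.0390).

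The spots of this probe separated the lines. In parental ES the 10 spots gave processed signals from 73.9 to 95.2 with a median of 86.6, in clones #1 and #9 from 8.602 to 30.4 (median 20.9) and from 26.7 to 37.7 (median 31.98), and in HoxA9-Ct ES from 21.5 to 32.7 with a median of 29.5. The lowest parental spot was thus above the highest spot of every other line, and the spots of the 3 transgenic lines overlapped. In clone #1, 9 of the 10 spots were well above background, and in the other lines all 10 were. Spots of one array share its RNA and are not replicates of the line.

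The other Kdr probe, A_55_P2094469, is named by the same transcript and did not show this difference. Its normalized log2 signal was 3.14 and 3.39 in parental and HoxA9-Ct ES and 3.24 and 2.88 in clones #1 and #9. The difference of the clones to parental ES was -0.08 (95% interval -1.17 to 1.01) at this probe, so the probes of Kdr disagree, and the scanner files hold no sequence to tell what each reads. The 250 bases before the Kdr start (GRCm38.p6, minus strand, chr5:75978456-75978705) are shown because the 10-spot probe gave the lowest values relative to parental ES, with GGAAG or its complement and CANNTG in capitals.
Kdr: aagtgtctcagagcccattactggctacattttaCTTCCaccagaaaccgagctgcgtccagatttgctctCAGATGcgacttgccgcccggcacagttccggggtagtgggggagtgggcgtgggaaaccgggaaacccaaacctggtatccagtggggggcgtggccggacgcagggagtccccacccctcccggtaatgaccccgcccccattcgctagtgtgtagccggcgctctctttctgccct
This stretch held 1 match of each, and the Kdr window held no match to the RUNX, GATA or Pbx-Hox motif.

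**Figure D2:**
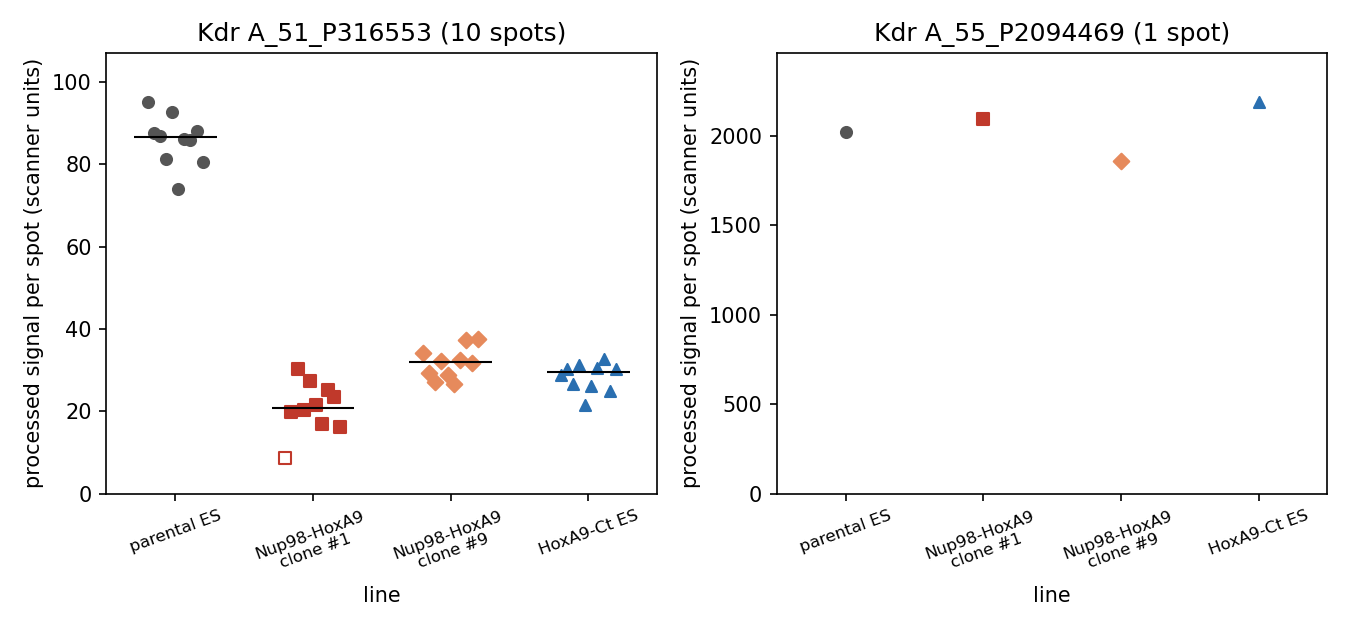
Processed signal of each spot (y axis, scanner units, starting at 0) of the Kdr probes A_51_P316553 (10 spots, left) and A_55_P2094469 (1 spot, right) in the 4 lines (x axis), with a bar at the median of the 10 spots and an open point for the spot not well above background. At the 10-spot probe the parental spots, 73.9 to 95.2, lie above all spots of the other lines, whereas at the other probe the 4 lines lie close together.

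Of 13 genes listed as upstream of Etv2 and Kdr or as marks of early mesoderm, T, Mesp1 and Mixl1 of the primitive streak were among 5 below background in every line. The list also held the receptors Acvrl1 and Flt1, the latter standing in the endothelial list too, and is not one of mesoderm genes alone. Pdgfra, a receptor of paraxial mesoderm and primitive endoderm, was the 1 gene called, above parental ES at least 6.48-fold in the clones (limma adjusted p = 0.000287). Gata4 was 1.79 and 1.98 above parental ES in clones #1 and #9 on the log2 scale (limma adjusted p = 0.0507) and Acvrl1 1.33 and 1.60 (limma adjusted p = 0.275), while Mesp2 was 0.45 and 0.76 above. Gata4 and Acvrl1 were called higher after normexp correction, with the floor and with the trended prior. Pdgfra and Gata4 are also primitive endoderm markers, whose list is given at the end.

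Kit, the receptor for stem cell factor, was read by a probe of 2 spots, A_66_P128434, at 2.90 and 2.70 in parental and HoxA9-Ct ES and 3.40 and 3.34 in clones #1 and #9. The clones were the highest lines, 1.41-fold and 1.36-fold above parental ES, and HoxA9-Ct ES was 1.15-fold below it. The difference of the clones to parental ES, 0.47 (95% interval -0.62 to 1.56), did not pass the test. The spots of Kit gave processed signals of 1654 and 1764 in parental ES, 1307 and 1412 in HoxA9-Ct ES, 2276 and 2410 in clone #1 and 2508 and 2609 in clone #9. Both spots of an array read the same RNA, so their spread is technical.

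Cd34, the surface sialomucin of progenitors and endothelium, was at 0.54 and 0.86 in parental and HoxA9-Ct ES and -1.17 and -0.05 in clones #1 and #9 at the probe A_51_P204740, well above background in every line. Both clones were below both other lines, but they differed from each other by 1.119 on the log2 scale: clone #1 was 3.25-fold below parental ES and clone #9 1.499-fold. The fitted difference was -1.14 to parental ES (95% interval -2.23 to -0.05, limma adjusted p = 0.702) and -1.47 to HoxA9-Ct ES (limma adjusted p = 0.264). Both were called with a trended and robust prior (limma adjusted p = 0.0107 and 0.000189) and after normexp correction (limma adjusted p = 0.0315 and 0.000220), the second also with a floor on the signal (limma adjusted p = 0.0103), and clone #9 alone gave a difference of -0.58 to parental ES. The other Cd34 probe, A_55_P2009225, was below background in every line, between -5.97 and -4.44.

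Among 18 ligands, co-receptors and adaptors of Kdr and Kit, 11 were well above background in every line and none was called by limma in the clones against parental ES (2 at an unadjusted p under 0.05). Vegfa, the main ligand of Kdr, was 0.72 and 0.91 above parental ES in clones #1 and #9 on the log2 scale, against -0.33 in HoxA9-Ct ES. Vegfd was 0.60 and 0.59 below in the clones. The co-receptor Nrp2 was below parental ES in all 3 transgenic lines, by 1.26 and 1.73 in clones #1 and #9 and 1.70 in HoxA9-Ct ES (limma adjusted p = 0.248 for the clones). After normexp correction, with the floor and with the trended prior, Nrp2 was called lower than in parental ES, in the clones and in HoxA9-Ct ES.

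The 14 probes were also set beside all probes. Of the 13 with a value on every array, 1 was called in the clones against parental ES, where 1.41% of all probes were, 1 against HoxA9-Ct ES, where 1.36% were, and none in HoxA9-Ct ES against parental ES, where 0.405% were. At an unadjusted limma p under 0.05 these counts were 4, 3 and 1 of 13. Over all probes this threshold was counted only in the alternatives. With median scaling, where the 13 gave the same counts, 3359, 3446 and 1804 of all 55562 probes met it. Among the 9 of these probes that were above background in every line, both clones were above both other lines at 3 (Lmo2, Kit and Runx1 A_55_P2183438), where 17.3% of 25529 such probes were, and below both at 4 (both Etv2 probes, Cd34 A_51_P204740 and the 10-spot Kdr probe), where 32.3% were. Both clones were at least 2-fold above parental ES at none of the 9 (1.10% of all) and at least 2-fold below it at 1, the 10-spot Kdr probe (0.776% of all), which was also at least 2-fold lower in all 3 transgenic lines (0.106% of all). The median log2 ratio to parental ES over the 9 probes was -0.06 and -0.17 in clones #1 and #9 and -0.20 in HoxA9-Ct ES, beside -0.03, -0.12 and 0.00 over all 25529 probes. Over all 55562 probes, dim ones included, it was -0.10, -0.27 and 0.06, a shift that the ratios above include.

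**Figure D3:**
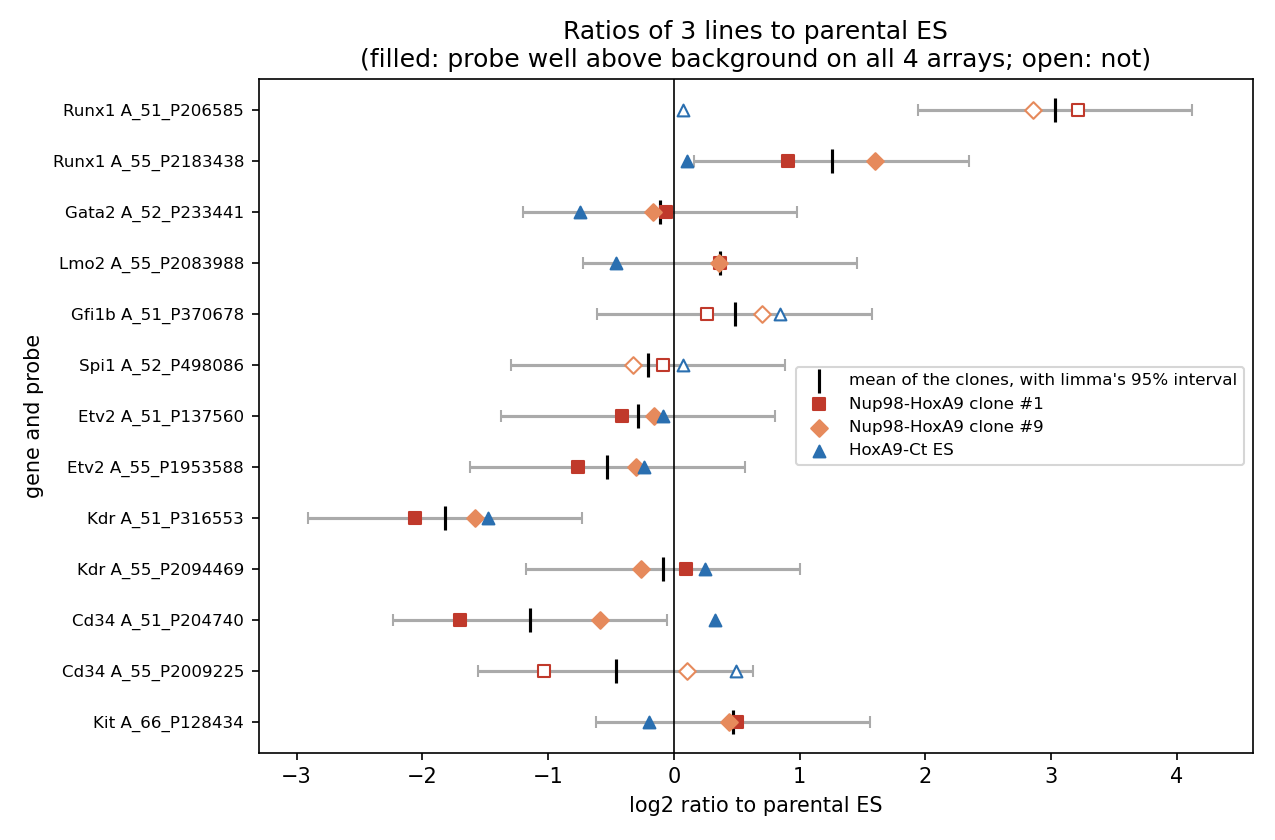
Log2 ratio to parental ES (x axis) of 13 probes (y axis) in both Nup98-HoxA9 clones and HoxA9-Ct ES, with the mean of the clones as a vertical tick and limma's 95% interval as a bar. Filled points belong to probes above background in every line, and open points to the rest. The intervals of both Runx1 probes lie above 0, those of the 10-spot Kdr probe and of Cd34 A_51_P204740 below it, and the other 9 span 0, and only Runx1 A_51_P206585 passed the test after adjustment over all probes.

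The lists of cell markers gave few calls in the blood and endothelial direction. Of 24 genes listed as endothelial markers, 13 were well above background in every line and none was called by limma in the clones against parental ES (5 at an unadjusted p under 0.05). Cdh5 (VE-cadherin) and Sox18 were below background throughout. Flt1 and Tal2 were well above background in both clones alone, at least 1.98-fold and 1.59-fold over parental ES, and neither was called. Of these, Tal2 is a relative of Tal1 and not an established marker of endothelium. Sox7 was 1.22 and 1.59 above parental ES in clones #1 and #9 on the log2 scale (limma adjusted p = 0.334), Cldn5 1.85 and 1.04 below (limma adjusted p = 0.291), and Icam2 0.22 and 2.35 above, a difference carried by clone #9. After normexp correction, with the floor and with the trended prior, Sox7 was called higher and Cldn5 lower. The median log2 difference of the clones over the 24 was 0.12.

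Of 23 measured blood cell markers, 14 were well above background in every line. Ptprc (CD45), Itga2b (CD41) and Mpo were among 8 below background in every line. Ly6a (Sca-1), a surface protein of blood stem cells that other cell types carry too, was the 1 marker called. It was at -3.04 and -1.52 in parental and HoxA9-Ct ES and -0.61 and 0.88 in clones #1 and #9, well above background in each, and the clones were 9.04-fold above parental ES (limma adjusted p = 4.18e-06). HoxA9-Ct ES lay between them, 1.52 above parental ES on the log2 scale, and the clones against HoxA9-Ct ES were not called (limma adjusted p = 0.131). Spn (CD43) was 2.004 and 1.18 below parental ES in the clones (limma adjusted p = 0.179), and Vav1 was 0.03 below in clone #1 and 1.20 above in clone #9. Spn was called lower after normexp correction, with the floor and with the trended prior. Of 9 measured globin and haem genes of red cells, none was called by limma (1 at an unadjusted p under 0.05) and 5 were below background in every line. The embryonic globin Hbb-bh1 (0.06 below parental ES in clone #1 and 0.13 above in clone #9), the anion exchanger Slc4a1 (0.24 and 0.43 above) and the transferrin receptor Tfrc (0.10 and 0.07 below) were well above background in all lines.

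Some markers of extraembryonic cell types were called higher in the clones. Of 12 primitive endoderm markers, 3 were called higher in the clones than in parental ES and 7 higher than in HoxA9-Ct ES, and the median difference of the clones to parental ES was 1.48 on the log2 scale. Gata6, which specifies this lineage, was at -1.998 and -3.38 in parental and HoxA9-Ct ES and 0.24 and 0.53 in clones #1 and #9 (5.21-fold over parental ES, limma adjusted p = 0.00275). Sox17 (4.04-fold, limma adjusted p = 0.0257) and Pdgfra were the others, and Sox17 was also called in HoxA9-Ct ES against parental ES, lower in the former (limma adjusted p = 0.00227). Col4a1, of the basement membrane, was 1.45 and 1.65 above parental ES in the clones (limma adjusted p = 0.204). The summed linear level of the list was 176 and 166 in parental and HoxA9-Ct ES and 180.01 and 209.9 in clones #1 and #9 (multiples of the array's 75th percentile), and every marker of it was well above background in both clones. The part of these markers in the Runx1 result was not tested.

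Of 11 trophectoderm and placenta markers, 2 were called in the clones against parental ES, both higher, and the median difference was 1.205 on the log2 scale over the 11 and 0.10 over the 5 above background in every line. Cdx2 was well above background in both clones alone, at least 1.82-fold over parental ES (limma adjusted p = 1.04e-05). Its signal in HoxA9-Ct ES, not well above background, was also 2.34 above parental ES on the log2 scale. The clones lay 0.74 above HoxA9-Ct ES. Elf5 was called higher in the clones (limma adjusted p = 0.00393) with a signal above background in clone #1 alone. Plet1 was 1.82 and 1.67 above parental ES (limma adjusted p = 0.0944), Tfap2a 0.40 and 1.14 below, and Ascl2 1.18 below in clone #1 and 0.33 above in clone #9. The summed linear level was 4.81 and 5.58 in parental and HoxA9-Ct ES and 4.65 and 6.89 in clones #1 and #9, and Tpbpa was below background throughout. Of 10 fibroblast markers none was called by limma (1 at an unadjusted p under 0.05), with Dcn, Lum, Postn and Twist2 below background in every line. Col1a1 (0.18 below parental ES in clone #1 and 1.93 above in clone #9), Thy1 (0.30 and 1.17 above) and Pdgfrb (0.56 and 1.38 above) differed most in clone #9, and the summed level was 8.03 and 11.01 in parental and HoxA9-Ct ES and 9.66 and 18.1 in clones #1 and #9.

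Among 8 germ cell markers, Prdm1 (Blimp1), a repressor that also acts in B and T cells, was called lower, at -0.55 and -0.94 in parental and HoxA9-Ct ES and -2.99 and -3.18 in clones #1 and #9 (5.81-fold below parental ES in the clones, limma adjusted p = 0.000934). Dppa3 was 0.52 and 1.62 below parental ES in the clones and Dazl 0.55 and 1.23 above, neither called. In the pluripotency list the largest differences were of Klf4 (0.71 and 0.14 above parental ES in clones #1 and #9), Utf1 (0.17 and 0.60 below) and Tdgf1 (0.29 and 0.33 above). Over all lists, 9 of 162 measured genes were called in the clones against parental ES, 6 higher and 3 lower, which is 5.56% beside 1.41% of all probes. None of the 9 was called after quantile normalization or over probes above background on at least 1 array, and each was called under 2 (Elf5) to 6 (Pdgfra) of the 8 alternatives. The lists were put together with earlier results of these arrays known, so that this share is a description. It was taken over genes at their brightest probe, whereas 25045 of all 55562 probes were well above background on no array. The shares therefore cover unlike sets.

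**Figure D4:**
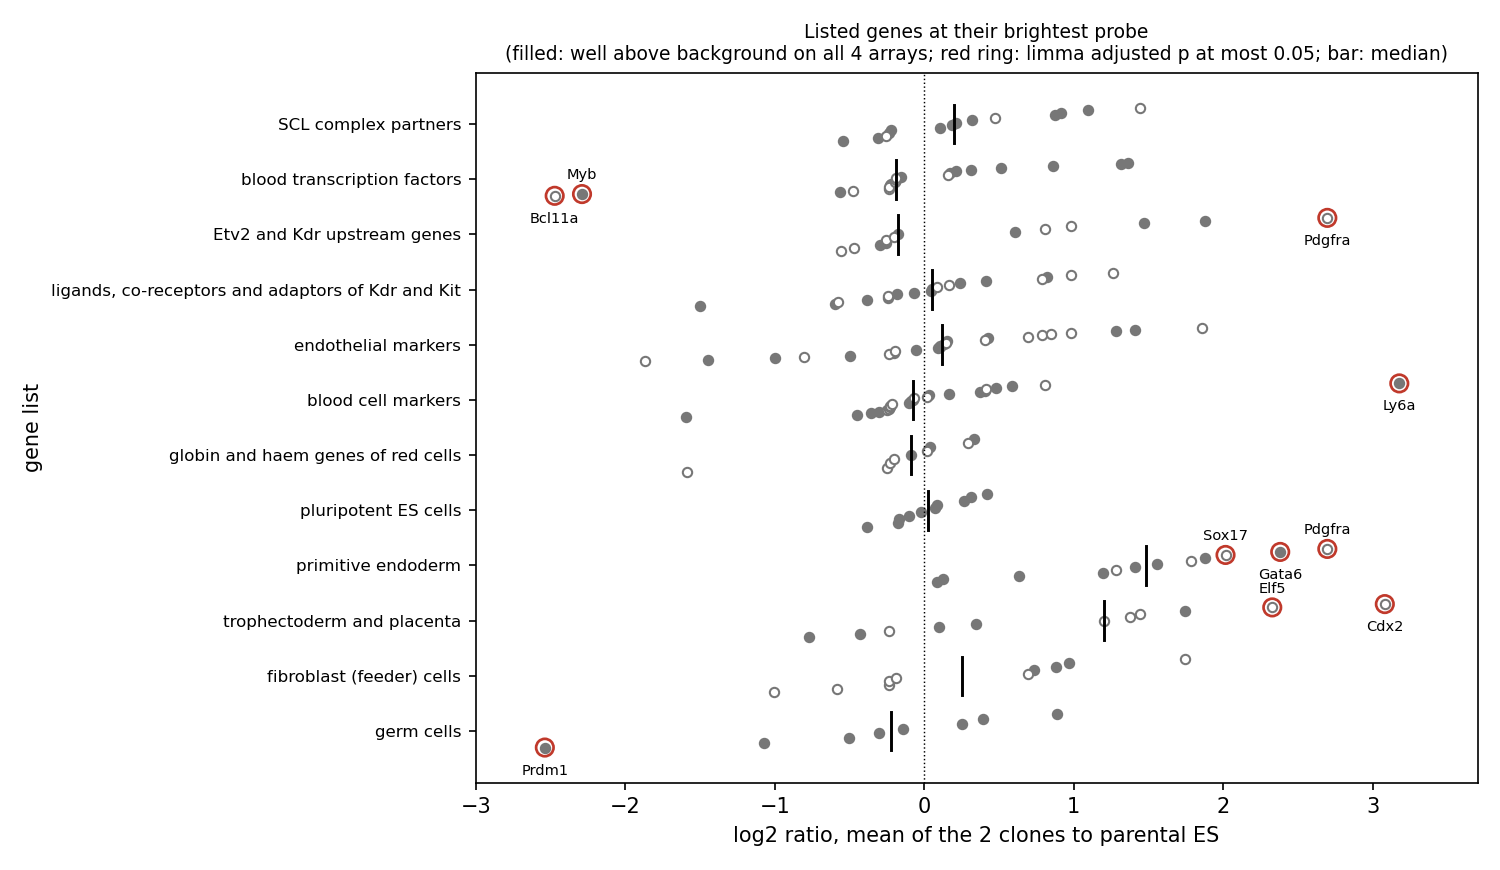
Log2 ratio of the mean of both Nup98-HoxA9 clones to parental ES (x axis) for each listed gene at its brightest probe, by list (y axis), with a bar at each list's median. Filled points are well above background in all 4 lines, and red rings mark the 9 genes called by limma (Pdgfra stands in 2 lists). Over all measured genes, the blood, endothelial and globin lists centre near 0, from -0.19 to 0.20. The primitive endoderm list lies at 1.48, the trophectoderm and placenta list at 1.205 and the fibroblast list at 0.251. Among genes well above background in all 4 lines, the primitive endoderm median is 1.302, but that of trophectoderm and placenta is 0.10. The medians of blood transcription factors and fibroblast markers among such genes are 0.190 and 0.879, the latter over 3 genes.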

How the data were processed

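RNA of 4 mouse ES lines was hybridised to one-colour Agilent SurePrint G3 Mouse arrays on 1 slide. The authors extracted the scans with Agilent Feature Extraction 10.10.1.1. The scanner files as deposited give each spot's intensity (processed signal, background-subtracted and detrended) and flags. The deposited series matrix holds the same intensity times 1 constant per array. The way these constants were set is not given in the sources used here.

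Each array's log2 processed signal was scaled to its 75th percentile over 59305 spots outside the controls, and spots of a probe were averaged without outliers. A probe was well above background where most of its remaining spots were so flagged. Lower-bound folds use, on the dim array, the higher of the probe's signal and the lowest signal well above background. RefSeq accessions named 26762 of 55681 probes.

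limma 3.58.1 in R 4.3.3 (lmFit, eBayes, Benjamini-Hochberg over 55562 probes, adjusted p of 0.05) compared Nup98-HoxA9, parental and HoxA9-Ct ES with 1 residual degree of freedom. Parental and HoxA9-Ct ES had 1 array each and were assumed to vary like the clones, and the prior SD of 0.454 was shared by all probes. In this fit the spread came from the difference between the clones alone, pooled over all probes. The prior degrees of freedom were infinite, so each probe was tested with the shared SD in place of its own spread. The labels do not say whether cultures were repeated, and the number of arrays, 4, limits the precision. Python 3.11.15 was used for counts.

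Alternatives were normexp (offset 50, on median signals, since no mean signal is in the files), quantile or median scaling, a floor, a filter, the matrix values, a trended robust prior, outlier spots kept and each clone left out. Listed genes were read at their brightest probe. Named were the 10 genes at every probe, 4 Hox-A genes, Pou5f1, Nanog and Sox2, and from each list the called genes and up to 3 with the largest difference among those above background in all lines. Genes below background that are named as such, and Flt1 and Tal2, were named after their values were seen. The members and lists were chosen with earlier results of these data known.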

Additional observations from a re-analysis of the deposited data

Results flagged for a closer look

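Runx1 at the probe A_51_P206585 differed between the fusion clones and the line with HoxA9-Ct alone by 2.96 on the log2 scale, a difference called by limma, with both clones well above background and the other lines below it. Lmo2, Kit and Cd34 (A_51_P204740) each moved one way from parental ES in both clones and the other way in HoxA9-Ct ES, 3 of 9 probes where 23.3% of all 25529 probes above background in every line did so. The clones differed from HoxA9-Ct ES by 0.82 for Lmo2, 0.67 for Kit and -1.47 for Cd34 on the log2 scale. None of these 3 differences was called by limma over all probes (limma adjusted p = 1.00, 1.00 and 0.264). They share 1 HoxA9-Ct array and 1 parental array.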

How the results depend on the processing

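In the clones against parental ES, 1 of the 13 probes was called, and this count was 2 after normexp correction, 0 after quantile normalization, 0 over probes above background on at least 1 array, 3 with a trended and robust prior and 2 with outlier spots kept, a choice made after seeing the data, by which Tal1 entered the fit. At an unadjusted limma p under 0.05 the counts were 3 and 3 where none was called. Against HoxA9-Ct ES the count of 1 became 0 after quantile normalization, 0 over probes above background and 2 with the trended prior, with 4 and 3 probes at an unadjusted p under 0.05 where none was called. Over all probes, the 781 calls in the clones against parental ES became 773 with normexp, 0 with quantile normalization (5104 at an unadjusted p under 0.05), 0 over the filtered probes (2224), 140 with the matrix values and 1243 with the trended prior. The probes called were not the same ones: with normexp they were Cd34 and Kdr, with the floor Kdr, and with the trended prior Runx1, Cd34 and Kdr, and against HoxA9-Ct ES Cd34 alone with normexp or the floor. The 9 calls among the other lists became 21 with normexp, 21 with the floor, 23 with the trended prior, 1 with the matrix values, 0 with quantile normalization (26 at an unadjusted p under 0.05) and 0 over the filtered probes (27). In HoxA9-Ct ES against parental ES none of the 13 probes was called by limma under the alternatives that left outlier spots out (1 to 3 at an unadjusted p under 0.05). The count was 1 with outlier spots kept, which is Tal1. After normexp the median ratio over the probes was 0.0390 and -0.0852 in clones #1 and #9 and -0.0955 in HoxA9-Ct ES, and with the matrix values it was -0.0717 in clone #9. The sign turned for Gfi1b with normexp (-0.0516) and the floor (-0.104) and for Spi1 with normexp (0.0513). The cause of these changes was not tested.

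With 1 clone left out no test remains, and the median over the clones' probes ranged from -0.17 to -0.06. No paired analysis was possible because the groups share fewer than 2 replicate numbers. Signals near background limit what can be said of Tal1, Gfi1b, Spi1 and the second Cd34 probe.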
